A study of Drepana arcuata with 6 samples.

Results

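Described here are the levels, in late and early instar caterpillars, of an urbain gene (TRINITY_DN21096_c3_g1), a glucose dehydrogenase-like gene (TRINITY_DN14155_c2_g1) and an ommochrome-binding protein gene (TRINITY_DN17657_c3_g4). Chosen by these identifiers, they are 3 of the 116079 Trinity genes of the assembly and hold 12 of its 231348 transcripts. A Trinity gene is a cluster of assembled transcripts that share sequence, and its members are called isoforms. One isoform of each gene is on a list in which the study names transcripts that differ between these same libraries, so the tests given here are not independent evidence of a difference.

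The larvae were the masked birch caterpillar, Drepana arcuata, a moth larva that lives in groups when young and alone later. Each of the 3 late instar libraries came from a pool of 5 whole larvae, a mix of instars IV and V, and each of the 3 early instar libraries from a pool of 20 whole larvae, a mix of instars I and II. All larvae were offspring of 1 wild-caught female, were reared on paper birch leaves, and carried no treatment or engineered allele, so p-values measure the spread between pools of 1 family. RNA was read as 150 bp read pairs, and RSEM assigned the fragments to the assembled transcripts.

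Ommochromes are pigments that insects make from tryptophan, and they colour eyes and, in many species, the skin. Proteins that bind them were first known from the blood of the tobacco hornworm, Manduca sexta, and the larvae studied here turn green as they grow. Glucose dehydrogenases of this kind carry a flavin cofactor and oxidise sugars; in the fruit fly, Drosophila melanogaster, the enzyme is needed for the adult to leave its pupal case. The urbain transcript is named after the closest database protein, an urbain precursor, and no role is given for it here. All these names rest on similarity to proteins of other species. No sequence of any isoform was at hand, so the names could not be checked against the transcripts themselves.

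The libraries held between 15109224 and 35571272 expected counts in late instars and between 11177800 and 46307057 in early instars. Levels are given as CPM, the expected count of a gene over all its isoforms relative to a library total scaled by TMM factors. Where genes are compared with each other they are given as TPM, which also divides by transcript length. Across the 22132 tested Trinity genes, which are not independent replicates, late replicate 2 stood apart from the other late libraries. Its Pearson r of log2(CPM + 1) was 0.937 with late replicate 1 and 0.955 with late replicate 3, against 0.983 between late replicates 1 and 3. Pairs of early libraries lay between 0.976 and 0.983, and pairs across the stages between 0.803 and 0.861. The tests of the genes and isoforms, the stage means of the genes and the isoform shares are therefore given without late replicate 2 as well, and what sets it apart was not tested.

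The urbain gene was higher in late instars, by a wide margin in 2 of the 3 late pools and by little in the third. It had 2350 CPM in late replicate 1, 5.07 CPM in late replicate 2 and 1537 CPM in late replicate 3, against 2.25, 3.67 and 2.78 CPM in early replicates 1, 2 and 3. Every late library was thus above every early one, but late replicate 2 was only 1.75 times the early mean and 383 times lower than the mean of the other late libraries. The underlying counts were 87266, 140 and 23121 in the late and 109, 39 and 62 in the early libraries. The means were 1297 ± 1190 CPM in late instars and 2.90 ± 0.72 CPM in early instars (SD, n = 3 each). In late instars the SD was nearly as large as the mean, and the late mean was 1943 CPM without late replicate 2 and 771 CPM without late replicate 1.

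The glucose dehydrogenase-like gene had the same order of late libraries. It had 234 CPM in late replicate 1, 3.58 CPM in late replicate 2 and 85.7 CPM in late replicate 3, against 0.165, 0.0936 and 0.134 CPM in early replicates 1, 2 and 3. Here late replicate 2, although 44.6 times lower than the mean of the other late libraries, was 27.4 times above the early mean. The early values rest on 8, 1 and 3 counts, and the late values on 8689, 99 and 1290. The means were 108 ± 117 CPM in late and 0.131 ± 0.036 CPM in early instars (SD, n = 3 each). The late mean was 160 CPM without late replicate 2 and 44.7 CPM without late replicate 1.

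The ommochrome-binding protein gene ran the other way and was almost confined to early instars. In late instars a single count was found over all 3 libraries, in replicate 2, which is 0.0362 CPM there and 0 CPM in replicates 1 and 3. In early instars it had 13.3 CPM in replicate 1, 2.53 CPM in replicate 2 and 2.404 CPM in replicate 3, from 644, 27 and 54 counts. The stages did not overlap, and early replicate 1 was 5.37 times the mean of the other early libraries. Pooled over libraries, the gene was 708-fold lower in late instars, with a 95% exact interval of 127 to 28000 that covers counting error only. Early replicate 1 held 644 of the 725 early counts, and without it the gene was 195-fold lower (34.0 to 7799). Without late replicate 1 it was 378-fold lower, and without late replicate 2, which held the only late count, at least 105-fold lower against the floor of 3 counts over the remaining late libraries. The means were 0.0121 ± 0.0209 CPM in late and 6.06 ± 6.23 CPM in early instars (SD, n = 3 each), and the late mean was 0 CPM without late replicate 2. In whole larvae, fewer cells that express a gene and less of its RNA per cell cannot be told apart.

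**Figure D1:**
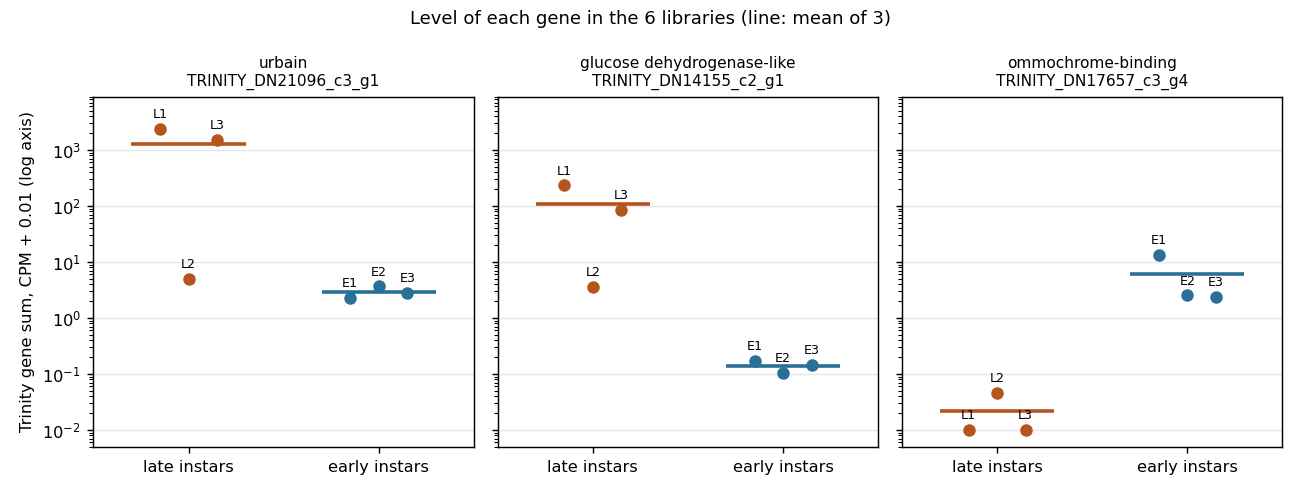
Level of each gene in every library, as CPM + 0.01 on a log axis, with late instars (L1 to L3) left of early instars (E1 to E3) and a line at the mean of each stage. Late replicate 2 sits at 5.07 CPM for urbain, near the early libraries, and at 3.58 CPM for the glucose dehydrogenase-like gene, between the other late libraries and the early ones; early replicate 1 is the highest for the ommochrome-binding gene.

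On the TPM scale, which allows genes to be compared, urbain had 676, 0.88 and 438 TPM in late replicates 1, 2 and 3, and ranked 301, 18838 and 443 among all Trinity genes of those libraries. It was 19.0, 1.83 and 36.4 times the glucose dehydrogenase-like gene in late replicates 1, 2 and 3, which had 35.6, 0.48 and 12.0 TPM. Urbain therefore led in all 3 late libraries, followed by the glucose dehydrogenase-like gene, with the ommochrome-binding gene at 0.01 TPM or 0. The gap between the leading pair in late replicate 2 rests on small levels. Of the 0.88 TPM of urbain there, 0.55 TPM came from its isoform i3 of 510 bp, with 17 counts. Its isoforms i1 and i4 had 0.32 and 0.01 TPM, against 0.48 TPM of the glucose dehydrogenase-like gene, so the lead there rests on i3. In late replicates 1 and 3 i3 held most of the TPM of urbain too, so its ranks and ratios depend on this short isoform. In early instars the order was different. The ommochrome-binding gene came first with 4.22, 0.75 and 0.67 TPM in early replicates 1, 2 and 3, urbain had 0.42, 0.25 and 0.28 TPM, and the glucose dehydrogenase-like gene had at most 0.02 TPM. The ommochrome-binding level was 10.1, 3.0 and 2.39 times that of urbain in these libraries.

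edgeR's quasi-likelihood test was run on all 22132 Trinity genes that passed the filter on low counts, and a gene was called where its p after Benjamini-Hochberg adjustment did not exceed 0.001 and its log2 fold change, late minus early, was 2 or more in size. None of the 3 genes was called. Over all tested genes 4.87% were called higher and 3.96% lower in late instars, and 8918 had an unadjusted p under 0.05. The log2 fold change was 8.84 for urbain (standard error 1.85, adjusted p = 0.00801), 9.51 for the glucose dehydrogenase-like gene (standard error 1.60, adjusted p = 0.00270) and -8.50 for the ommochrome-binding gene (standard error 1.22, adjusted p = 0.00115), all by the quasi-likelihood test in edgeR. With the adjusted p set at 0.05 all 3 passed, where 7.74% of genes were called higher and 6.39% lower. On the same counts, edgeR's exact test called all 3 (adjusted p from 5.04e-15 to 2.14e-09), with 7.67% of genes called higher and 6.32% lower. DESeq2 called all 3 as well (adjusted p from 9.86e-11 to 1.54e-07), with 7.32% called higher and 5.94% lower.

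For each gene, leaving out 1 library changed the outcome of the quasi-likelihood test. Without late replicate 2, urbain was called at a log2 fold change of 9.44 (adjusted p = 9.77e-07) and the glucose dehydrogenase-like gene at 10.07 (adjusted p = 3.83e-06). Without early replicate 1, the ommochrome-binding gene was called at -7.08 (adjusted p = 0.000762). These adjusted p-values are from edgeR. Leaving out any other library gave no call, with adjusted p between 0.00350 and 0.0218 for the glucose dehydrogenase-like gene, up to 0.0477 for urbain and up to 0.00631 for the ommochrome-binding gene. For the ommochrome-binding gene, the fit without late replicate 2 gave -10.40 (adjusted p = 0.00294, edgeR). The direction was the same in all 17 alternatives tried for each gene. The late and early libraries did not overlap for any of these genes, which left little room for a reversal. The share of all tested genes without such overlap is not given here, so whether this is unusual cannot be told.

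**Figure D2:**
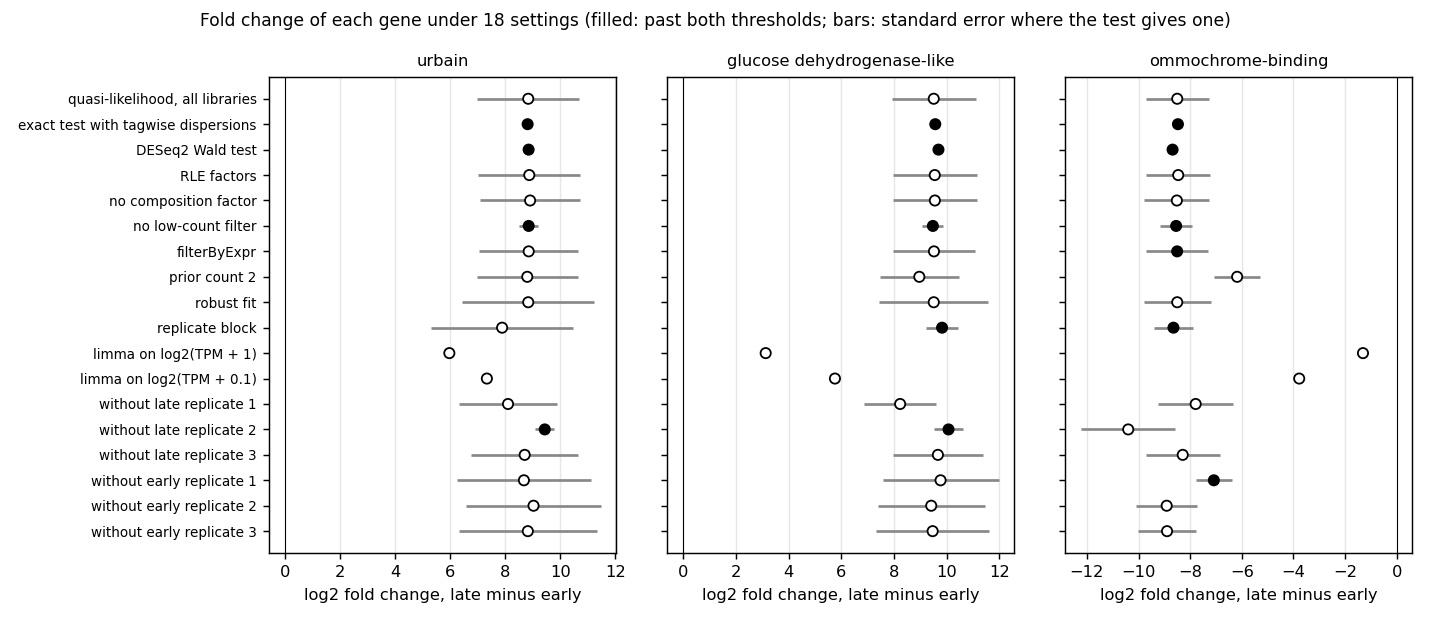
Log2 fold change, late minus early, of each gene under the quasi-likelihood test with all libraries and 17 alternatives, with filled points past both thresholds and bars for the standard error where the test gives one. The direction is the same throughout, where the libraries of the stages do not overlap for any of the genes. Among the fits that leave out a library only those without late replicate 2 (urbain, glucose dehydrogenase-like) and without early replicate 1 (ommochrome-binding) pass.

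The low value of late replicate 2 was set beside the same measure over all genes. For each tested gene above 0 in late replicate 1 or 3, 22105 in all, late replicate 2 was divided by the mean of late replicates 1 and 3. The ommochrome-binding gene, seen in late instars only in replicate 2, has no such ratio. The median ratio was 1.002, and 0.982% of genes had a ratio under 0.1. Urbain had a ratio of 0.00261, with 45 genes below it, and the glucose dehydrogenase-like gene had 0.0224, with 97 genes below it. Among the 10891 genes with a mean late CPM of at least 10, 6 genes were below urbain and 42 below the glucose dehydrogenase-like gene. The coefficient of variation of the 3 late libraries was 91.8% for urbain and 108% for the glucose dehydrogenase-like gene, against a median of 20.3% over all tested genes. In early instars it was 24.7% and 27.3% for these genes, against a median of 19.2%. For the ommochrome-binding gene the early coefficient of variation was 103%. Early replicate 1 was more than 5 times the mean of the other early libraries in 0.206% of 21836 genes, and 38 genes had a higher ratio than this gene.

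**Figure D3:**
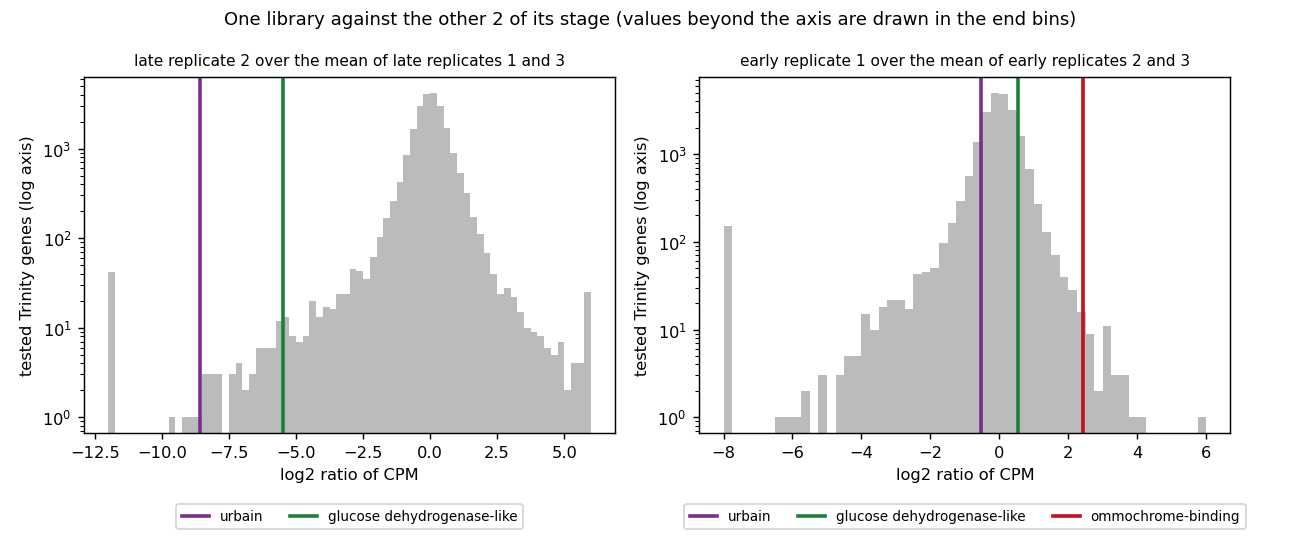
Number of tested Trinity genes, on a log axis, by the log2 ratio of late replicate 2 to the mean of late replicates 1 and 3 (left) and of early replicate 1 to the mean of early replicates 2 and 3 (right), with lines at the 3 genes. Most genes lie near a ratio of 1, urbain (0.00261) and the glucose dehydrogenase-like gene (0.0224) lie in the left tail of the first panel, and the ommochrome-binding gene (5.37) in the right tail of the second.

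The isoforms were then taken one by one. RSEM divides a fragment that fits several isoforms between them, so each value is an estimate. Of the 12 isoforms, 8 passed the filter on low counts among 52912 transcripts, and 7 of the 12 had 0 counts in every early library. The share of all transcripts without early counts is not given here, so whether 7 of 12 is unusual cannot be told. The quasi-likelihood test called none of the 8, and none of all tested transcripts (0% in either direction), although all 8 had an unadjusted p under 0.05, as did 12871 transcripts in all. Their adjusted p in edgeR ran from 0.0258 to 0.175, and at an adjusted p of 0.05 1 was called higher and 1 lower, against 4.2% and 3.02% of all tested transcripts. Without late replicate 2 the urbain isoforms i3, i4, i1 and i5 had adjusted p of 0.00458, 0.00717, 0.0077 and 0.0249 by edgeR. The glucose dehydrogenase-like isoforms i2, i3 and i4 had 0.0105, 0.0179 and 0.0350. The ommochrome-binding isoform i1 had 0.0427 in place of 0.0307, and none of the 8 was called by edgeR. edgeR's exact test called 4 of the 8 higher and 1 lower in late instars, against 4.08% and 2.11% of all tested transcripts. DESeq2 called 5 higher and 1 lower, against 4.86% and 3.31%.

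The urbain gene has 5 isoforms, and no single one carried the early signal and the late signal. The longest, TRINITY_DN21096_c3_g1_i1 of 4172 bp, had 1289, 121 and 738 counts in late replicates 1, 2 and 3, against 93, 39 and 59 counts in early replicates 1, 2 and 3. It held most of the early counts of the gene. Its level was 30.0 ± 23.4 CPM in late and 2.74 ± 0.82 CPM in early instars (SD, n = 3 each), with a fitted log2 difference of 3.47 ± 0.87 (SE; adjusted p 0.0642 by edgeR).

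The isoform TRINITY_DN21096_c3_g1_i4 of 3947 bp, the one on the list of the study, had 66243, 2 and 16635 counts in the late replicates and 0 in early instars. It held 75.9%, 1.45% and 72.0% of the counts of its gene in late replicates 1, 2 and 3. Against a floor of 3 counts over the early libraries, its mean was at least 26190-fold higher in late instars. The fold rests on late replicates 1 and 3, since late replicate 2 had 0.0751 CPM. It was at least 15110-fold without late replicate 1, 39290-fold without late replicate 2 and 11020-fold without early replicate 1, the deepest library.

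The short isoform TRINITY_DN21096_c3_g1_i3 of 510 bp had 19221, 17 and 5698 counts in the late replicates, against 16, 0 and 3 counts in the early ones. It held 22.0%, 12.3% and 24.7% of the late counts of the gene, but, because TPM divides by length, 74.7%, 62.5% and 76.9% of its late TPM. The TPM of the whole gene is thus mostly the TPM of this short contig. In late replicates 1 and 3, i3 was 3.16 and 3.70 times i4 in TPM, so these isoforms kept nearly the same proportion in both libraries. In late replicate 2 the ratio was 55.0, from 2 counts of i4. The remaining isoforms were weak. TRINITY_DN21096_c3_g1_i2 (3012 bp) had 378 counts, all in late replicate 1, and TRINITY_DN21096_c3_g1_i5 (327 bp) had 135, 0 and 49 counts in the late replicates and 0 in early instars.

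By the share of counts held by i1, urbain in late replicate 2 lay nearer to the early libraries than to the other late ones. The share of counts held by i1 was 1.48%, 86.3% and 3.19% in late replicates 1, 2 and 3, against 85.4%, 100% and 94.6% in early replicates 1, 2 and 3. In late replicate 2 i1 itself was at 4.47 CPM, above each early library (2.01, 3.63 and 2.58 CPM) and well under the other late ones (35.3 and 50.3 CPM). Shares of TPM were less clear. The TPM share of i3 was 62.5% in late replicate 2, against 74.7% and 76.9% in late replicates 1 and 3. In early replicates 1, 2 and 3 it was 67.0%, 0% and 39.6%. The early gene totals of at most 109 counts limit how finely these shares can be read.

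The glucose dehydrogenase-like gene has 5 isoforms as well, and in late instars 1 of them dominated. TRINITY_DN14155_c2_g1_i3 of 2393 bp had 8239, 76 and 1168 counts in late replicates 1, 2 and 3 and no counts (0) in any early library. This isoform, which is on the list of the study, was at least 2737-fold higher in late instars on the mean. The bound was 1098-fold without late replicate 1, which had 226 CPM, 4068-fold without late replicate 2 and 1151-fold without early replicate 1. It held 94.8%, 76.3% and 90.1% of the late TPM of the gene. TRINITY_DN14155_c2_g1_i2 of 2306 bp had 146, 23 and 75 late counts and was the only isoform seen in early instars, with 8, 1 and 3 counts. Its level was 3.32 ± 2.22 CPM in late and 0.132 ± 0.040 CPM in early instars (SD, n = 3 each), with a fitted log2 difference of 4.54 ± 0.84 (SE; adjusted p 0.0258 by edgeR). The absence of i3 among 12 early counts allows it a share of up to 26.5% there (95% exact interval). TRINITY_DN14155_c2_g1_i1, i4 and i5 summed to 131, 210 and 9 late counts, had 0 counts in early instars, and were at 0 in late replicate 2 too.

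The ommochrome-binding gene has 2 isoforms of similar length. TRINITY_DN17657_c3_g4_i1 of 1077 bp, the one listed by the study, had 0 counts in late instars and 475, 27 and 45 counts in early replicates 1, 2 and 3, and was at least 128-fold lower in late instars against a floor of 3 counts over the late libraries. The bound was 58.1-fold without early replicate 1, 68.2-fold without late replicate 1 and 83.7-fold without late replicate 2. Its fitted log2 fold change of -10.02 depends on the prior count (SE 1.46, adjusted p 0.0307 by edgeR). TRINITY_DN17657_c3_g4_i2 of 1041 bp held the single late count, against 169, 0 and 9 counts in the early replicates. In early instars i1 held 73.0%, 100% and 82.2% of the TPM of the gene, so the main isoform was the same in all 3 early pools. The high value of early replicate 1 was seen in both isoforms, at 10.3 CPM for i1 (against 2.503 and 1.96 CPM in early replicates 2 and 3) and at 3.65 CPM for i2 (against 0 and 0.407 CPM).

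**Figure D4:**
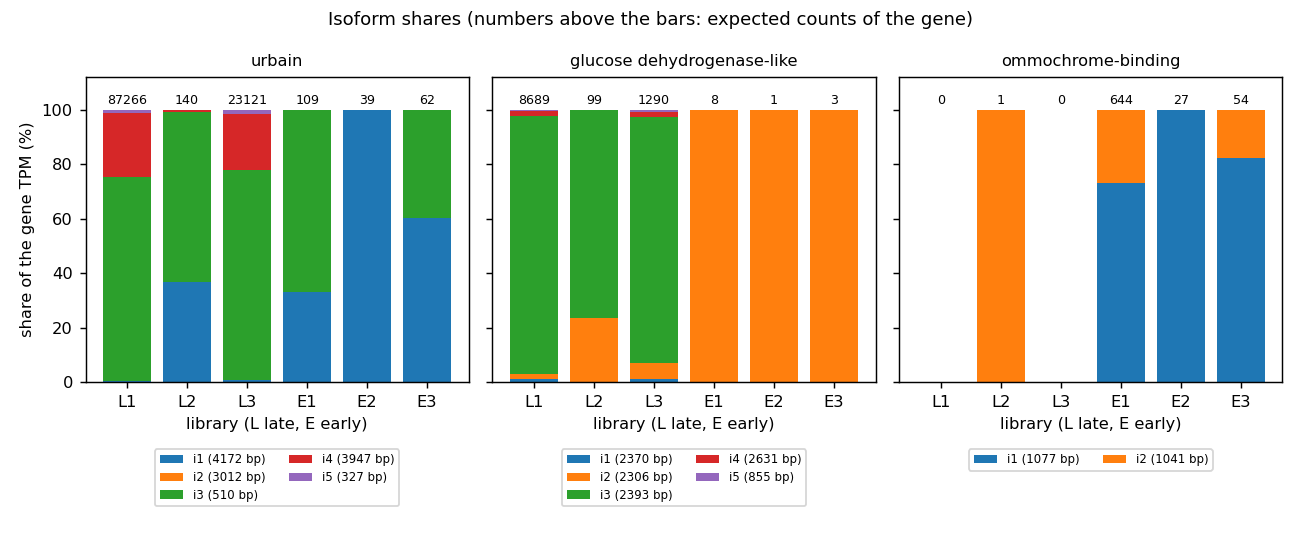
Share of the TPM of each gene held by its isoforms (percent) in late (L) and early (E) libraries, with the expected counts of the gene above each bar. For urbain, i1 (blue) holds 36.9% in late replicate 2 and under 1% in the other late libraries; for the glucose dehydrogenase-like gene, i3 (green) holds 76.3% or more in late instars and 0% in early instars; the ommochrome-binding gene has 1 late count.

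Isoform shares were compared between the stages with a two-sided exact permutation test, which cannot go below p = 0.1 with 3 libraries against 3, so no share could pass. It was run on the 5 isoforms with a mean share of at least 10% in either stage, in the genes with TPM above 0 in every library, which leaves out the ommochrome-binding gene. The share of i2 in the glucose dehydrogenase-like gene was 10.5 ± 11.7% in late and 100 ± 0% in early instars (SD, n = 3 each), that of i3 was 87.0 ± 9.63% and 0 ± 0%, and both reached p = 0.1 (adjusted 0.167) in the exact test. For urbain the share of i4 did not overlap between the stages (15.03 ± 12.52% in late, 0 ± 0% in early instars, n = 3 each, exact p = 0.1). The shares of i1 and i3 overlapped, with an exact p of 0.2 for both. Without late replicate 2 the difference in share, late minus early, was -63.83 percentage points for urbain i1 in place of -51.75, 40.28 for i3 in place of 35.84 and 22.21 for i4 in place of 15.03. For the glucose dehydrogenase-like gene it was -96.11 for i2 in place of -89.49 and 92.44 for i3 in place of 87.04.

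Other Trinity genes with the same component name were examined, since Trinity builds these from related sequence. None of them is annotated here. Urbain has 2 such neighbours, and neither had the pattern of urbain. TRINITY_DN21096_c3_g2 had 1.63 ± 0.26 CPM in late and 1.77 ± 0.25 CPM in early instars (SD, n = 3 each), and TRINITY_DN21096_c3_g3 had 2.68 ± 0.39 and 2.85 ± 0.11 CPM, with log2 fold changes of -0.12 (standard error 0.28) and -0.10 (standard error 0.24). In late replicate 2 they were at 1.92 and 3.08 CPM, the highest of the late libraries, where urbain was at its lowest. Both neighbours of the glucose dehydrogenase-like gene were under the filter, with at most 23 counts in a library, and were not tested. TRINITY_DN14155_c2_g2 had 23, 1 and 9 counts in late replicates 1, 2 and 3 and 2, 0 and 0 in early replicates 1, 2 and 3. TRINITY_DN14155_c2_g3 had 9, 0 and 0 late counts and 0 early counts.

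The ommochrome-binding gene has 5 neighbours, of which 4 were tested and 1 was called, in the lower direction, where 3.96% of all tested genes were called. TRINITY_DN17657_c3_g6 had 0.189, 0.145 and 0.199 CPM in late replicates 1, 2 and 3, against 2.44, 1.81 and 2.39 CPM in early replicates 1, 2 and 3. It fell in late instars by 3.63 on the log2 scale (SE 0.37, adjusted p 0.00017 by edgeR). It thus shared the direction of the ommochrome-binding gene, but early replicate 1 was not far above the other early libraries. TRINITY_DN17657_c3_g1, c3_g2 and c3_g3 had log2 fold changes of 0.59, -0.08 and -0.43 and were not called, and c3_g5 had 8 counts in all.

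To find other genes with the same profile, log2(CPM + 1) over the 6 libraries was centred on the mean of each gene, and the root mean square distance to each of the 3 genes was taken over all tested genes. All profiles come from the same 6 libraries, so the distances are a description, and a low late replicate 2 or a high early replicate 1 in a neighbour follows from the choice by this distance. The genes nearest to urbain were TRINITY_DN19832_c1_g2, TRINITY_DN21205_c1_g3 and TRINITY_DN15409_c0_g2, at distances of 0.41, 0.45 and 0.59, against a median of 4.17 over all genes. TRINITY_DN19832_c1_g2 had 759, 2.68 and 626 CPM in late replicates 1, 2 and 3, against 0.432, 0.187 and 0.134 CPM in early replicates 1, 2 and 3.

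Nearest to the glucose dehydrogenase-like gene were TRINITY_DN20511_c2_g2, TRINITY_DN12394_c0_g1 and TRINITY_DN18366_c0_g1, at 0.31, 0.40 and 0.41, against a median of 3.18. TRINITY_DN20511_c2_g2 had 339, 7.49 and 254 CPM in the late replicates and 1.21, 1.12 and 0.891 CPM in the early ones. Nearest to the ommochrome-binding gene were TRINITY_DN21082_c3_g3, TRINITY_DN14344_c1_g3 and TRINITY_DN14556_c4_g1, at 0.33, 0.37 and 0.38, against a median of 1.42. TRINITY_DN21082_c3_g3 had 6.15, 7.54 and 6.51 CPM in the late replicates and 59.3, 27.7 and 24.4 CPM in the early ones, a log2 fold change of -2.47 (SE 0.35). It was thus well above 0 in late instars, where the ommochrome-binding gene had a single count. The distance on log2(CPM + 1) gives low levels little weight, and centring takes out the mean level of each gene.

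**Figure D5:**
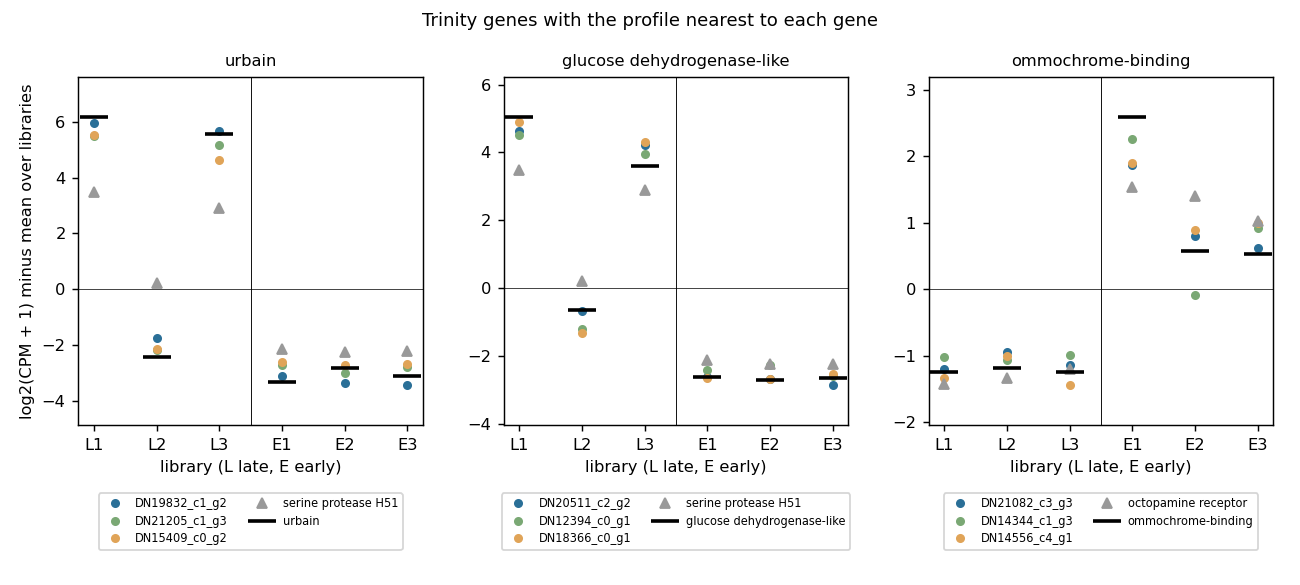
Centred log2(CPM + 1) of each gene (black bars), of the 3 Trinity genes nearest to it (circles) and of the nearest annotated gene (triangles) in late (L) and early (E) libraries. The circles follow urbain and the glucose dehydrogenase-like gene down at late replicate 2, and the ommochrome-binding gene up at early replicate 1.

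Protein names are given by the study to 24 further Trinity genes in its lists, and all were tested, with the quasi-likelihood test calling 6 higher and 3 lower in late instars (against 4.87% and 3.96% of all tested genes). The study drew part of these lists from differences in the same libraries. Late replicate 2 was at its usual level in most of them, with a median ratio to the other late libraries of 1.03, and the ratio was under 0.5 in 3. The mucin-5AC-like gene (TRINITY_DN20861_c0_g1), of a family that forms mucus linings, had a ratio of 0.0925, the serine protease H51 gene (TRINITY_DN19503_c2_g2) 0.111, and the aminopeptidase N-like gene (TRINITY_DN20910_c0_g1), a peptide-trimming enzyme, 0.266. Urbain, at 0.00261, and the glucose dehydrogenase-like gene, at 0.0224, were lower than each of the 24.

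Serine protease H51 was the annotated gene with the profile nearest to both of them, at a distance of 1.99 from urbain and 0.84 from the glucose dehydrogenase-like gene. Among all tested genes it ranked only 52 and 31 by these distances. It had 77.4, 7.13 and 51.1 CPM in late replicates 1, 2 and 3, against 0.597, 0.468 and 0.490 CPM in early replicates 1, 2 and 3. Of the annotated genes, the octopamine receptor gene (TRINITY_DN15936_c1_g2), which encodes a receptor for the insect amine octopamine, was nearest to the ommochrome-binding gene. Its distance was 0.59, and it ranked only 151 among all tested genes. It had 0.135, 0.217 and 0.332 CPM in the late replicates and 7.88, 7.11 and 5.25 CPM in the early ones. Its early libraries lay closer together than those of the ommochrome-binding gene.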

How the data were processed

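Whole larvae were sequenced in 3 late and 3 early instar libraries, each from a separate pool. The authors trimmed reads with Trimmomatic 0.36, checked them with FastQC 0.11.7, assembled all libraries together with Trinity, and estimated abundance with RSEM (version and aligner not given in the sources used here). As its main values the authors deposited unnormalized expected counts for every transcript. The deposited tables also hold TPM and FPKM, which RSEM scales for length and library, and the percent of gene TPM held by an isoform. FPKM was not used.

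Expected counts, per transcript and summed per Trinity gene, were rounded. Features above 1 CPM in 2 or more libraries entered edgeR 4.0.16 under R 4.3.3 (TMM, glmQLFit, glmQLFTest, no covariate). Alternatives were the exact test, DESeq2 1.42.0, RLE or no composition factors, no filter, filterByExpr, a prior count of 2 in place of 0.125, robust fitting, a block for replicate number, limma 3.58.1 on log2(TPM + 1) and log2(TPM + 0.1), and each library left out. An adjusted p of 0.05, the ratio for early replicate 1, and means and folds without each library were added after seeing the data. The text names the 3 genes, their isoforms, tested genes of the same component, the 3 nearest profiles and the nearest annotated gene. The mucin and aminopeptidase genes and the untested neighbours were named after their values were seen. The members and lists were chosen with earlier results of these data known. Genes and isoforms have their own TMM factors. The steps were tested on simulated counts of Trinity genes, with the same dispersion for all and changes set only in well-expressed genes. That simulation had no deviating library, and it covered neither transcripts nor changed genes near 0 counts in a stage. Depth ran from 15109224 to 35571272 counts in late and from 11177800 to 46307057 in early libraries, intervals and floors cover counting error only, and the floor is 3 counts over the libraries of a stage. Within a stage, no pair of libraries agreed within sampling noise (lowest chi-square per degree of freedom 35.68), and all 6 were kept.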

Additional observations from a re-analysis of the deposited data

How the results depend on the processing

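All 3 genes kept their direction in all 17 alternatives, which the lack of overlap between the stages left little room to reverse. Each was called only in some. By the exact test the log2 fold change was 8.81 for urbain, 9.56 for the glucose dehydrogenase-like gene and -8.47 for the ommochrome-binding gene, by DESeq2 8.85, 9.69 and -8.68, and with no filter on low counts 8.85, 9.47 and -8.54, all of them called. The values moved most by limma, to 5.97, 3.13 and -1.31 on log2(TPM + 1), the last under the limit of 2, and to 7.33, 5.76 and -3.78 on log2(TPM + 0.1), and a prior count of 2 gave -6.18 for the ommochrome-binding gene. None of these was called. With filterByExpr only the ommochrome-binding gene was called (-8.51, adjusted p = 0.000999, edgeR). With a library left out, the values lay between 8.10 and 9.44, between 8.23 and 10.07, and between -10.40 and -7.08. The adjusted p over all alternatives ran up to 0.0657 for urbain, 0.0495 for the glucose dehydrogenase-like gene and 0.0436 for the ommochrome-binding gene. Trinity genes called higher and lower in late instars numbered 1077 and 876 by the quasi-likelihood test, 1698 and 1399 by the exact test, 1621 and 1315 by DESeq2, 2244 and 1584 with no filter, 596 and 152 by limma on log2(TPM + 1), and 1713 and 1414 at an adjusted p of 0.05, and with a library left out they ran from 581 to 1486 and from 445 to 1001. Transcripts called higher and lower numbered 0 and 0 by the quasi-likelihood test, 2160 and 1116 by the exact test, 2570 and 1750 by DESeq2, 1403 and 489 with no filter, 500 and 106 by limma on log2(TPM + 1), 972 and 208 on log2(TPM + 0.1), and 2220 and 1598 at an adjusted p of 0.05. With no filter, more features entered the fit, and the standard error of urbain was 0.34 in place of 1.85 (adjusted p = 2.52e-142, edgeR). The cause of the differences between settings was not tested.

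Whether the replicate numbers pair the libraries could not be decided. Deviations from the stage mean correlated at 0.111, 0.020 and 0.221 for same-numbered libraries. Late replicates 1 and 3 correlated best with the early library of the same number, and late replicate 2 with early replicate 1 (0.047). Deviations within a stage constrain each other, so these weak correlations neither show nor exclude a pairing. With the replicate number as a block, the numbers called were 992 and 699, and the glucose dehydrogenase-like gene (9.82, adjusted p = 0.00011) and the ommochrome-binding gene (-8.65, adjusted p = 0.000337) were called, while urbain was not (7.89, adjusted p = 0.0657, edgeR). In TPM the ratio of late replicate 2 was 0.00158 for urbain in place of 0.00261. Depth limits the early values of the glucose dehydrogenase-like gene (12 counts) and the late value of the ommochrome-binding gene (1 count).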
